A study of Gallus gallus with 3 samples.

Results

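The KCN genes encode potassium channels and the proteins that modify them. They were taken as every gene whose symbol in the deposited expression table begins with KCN, which gave 79 of 15916 genes, in 19 subfamilies named by the letter that follows. Potassium channels let potassium leave the cell, and so set the resting voltage of a membrane and end the electrical signals of excitable cells. In the neural tube, voltage-gated potassium currents appear as neurons leave the cell cycle and gain excitability, while leak and inward rectifier channels are also found in dividing progenitors. A KCN symbol marks the family of a protein and not a pore: some members are silent partners or soluble subunits that alter the pores of others. The roles given below are known mainly from mammals.

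RNA was measured in the spinal neural tube, the epithelium that forms the spinal cord, of wild-type White Leghorn chickens. There were 2 libraries of stage HH14 and 1 of the later stage HH19 in the Hamburger and Hamilton series. The labels name no engineered allele and no drug. Their growth protocol mentions microsurgery before further incubation, without saying whether these embryos had it. The tissue was cut at the brachial level, reaching back toward the thorax, and was freed of neighbouring tissue by hand and with trypsin. That protocol is written for HH14 and stands unchanged in the HH19 label, so the HH19 dissection may have differed, which cannot be told apart from stage. Each library pooled about 25 embryos, so that the spread between single embryos was not measured. Values were TPM, a share of transcripts corrected for gene length, so that levels of different genes can be set side by side. The neural identity of the tissue was seen in the progenitor genes SOX2 (178 TPM at HH14 against 185 TPM at HH19) and PAX6 (125 and 166 TPM).

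The deposited HH14 value was 1 number per gene for both libraries and carried no replicate error. Low values moved in steps of whole reads, and from these steps the separate HH14 levels, called library A and library B here, were recovered for 78 of the 79 KCN genes. KCNK5 was the exception. KCNJ5 only just met the limit for recovery, with 0.00999 solutions expected by chance against a limit of 0.01. Its levels per library, and the sums and shares that include them, are therefore less sure. Which of the HH14 libraries was replicate 1 is not known, and their order has no meaning. Library B was 1.28 times as deep as library A. Read numbers given below are the smallest that give the deposited values. For tested KCN genes they had a median of 113 in library A, 167 in library B and 171.5 at HH19, and ranged from 1 to 1432.

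The level of most KCN genes was low at both stages. A level of 10 TPM or more was reached by 9 genes in either column, and 32 stayed under 1 TPM in both. For 5 genes (KCNJ1, KCNJ4, KCNJ14, KCNV2 and KCNE1) no read was recovered from any of the 3 libraries, and 22 had under 20 reads in every library. The inward rectifier KCNJ5, the soluble subunit KCNAB2 and the leak channel KCNK5 together made 35.5% of the summed KCN level at HH14. The same genes made 27.1% at HH19, when KCNAB2 was the highest. At HH14 KCNJ5 was above KCNAB2 in library A (54.7 against 23.7 TPM) and below it in library B (16.9 against 33.8 TPM). The sum over all 79 genes was 235 TPM at HH14, against 276 TPM at HH19. In bulk tissue, fewer cells of a type and less RNA per cell cannot be told apart.

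Genes with a mean over the 3 libraries of at least 1 TPM were compared on the log2(TPM + 1) scale. Those at least 1 unit above or below the deposited HH14 value counted as higher or lower at HH19. This is a rule of size and not a test, and the log2(TPM + 1) scale understates the change of low genes. Of the 79 KCN genes 39 reached the mean of 1 TPM. By this rule 5 were higher at HH19 (KCNC4, KCNH2, KCNIP2, KCNIP4 and KCNT1), or 12.8%, beside 3.93% of all 11097 genes that passed the filter. The leak channel KCNK16 was the 1 lower gene, or 2.56%, beside 1.38% of all genes. Such shares, here and below, are not matched for level, and many KCN genes were low. At a mean of at least 5 TPM, 1 of 12 KCN genes was higher, beside 261 of 8867 genes. After median-ratio scaling 4 KCN genes were higher and 2 lower, beside 388 and 173 of all 11097 genes. Quantile normalization gave 3 and 2 KCN genes, beside 302 and 217 of all 11097. The median log2 difference was 0.12 over the KCN genes and 0.05 over all genes, and it was -0.04 over the KCN genes after quantile normalization. The HH19 level lay above the HH14 value for 26 of the 39 genes (66.7%), beside 55.6% of all genes.

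The 4 KCN genes KCNT1, KCNH2, KCNIP2 and KCNIP4 were at least 2-fold above each HH14 library on the log2(TPM + 1) scale. That was 4 of 38 recovered genes, beside 2.94% of the 7461 recovered genes that passed the filter. No KCN gene was 2-fold below each HH14 library, beside 0.469% of all. HH19 lay above both HH14 libraries for 21 of the 38 genes (55.3%, beside 47.3% of all), below both for 7 (18.4%, beside 20.5%) and between them for 10. These positions, here and below, compare single values without regard to counting error. For KCNJ2, KCNJ3, KCNJ11 and KCNQ3, among others, the 95% counting interval of HH19 overlapped that of an HH14 library. In limma, which here assumes that the single HH19 library varies like the HH14 pair, no KCN gene was higher or lower at an adjusted p below 0.05, beside 0.375% of all genes higher and 0.0804% lower. At an unadjusted p below 0.05 limma gave 7 of the 38 KCN genes, beside 584 of the 7461 genes. The shares of all genes given for the adjusted p count only those that also differed at least 2-fold in limma. Nothing in the labels says that the pools came from separate batches of eggs. The limma p-values therefore cover no more than the spread among the libraries at hand.

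**Figure D1:**
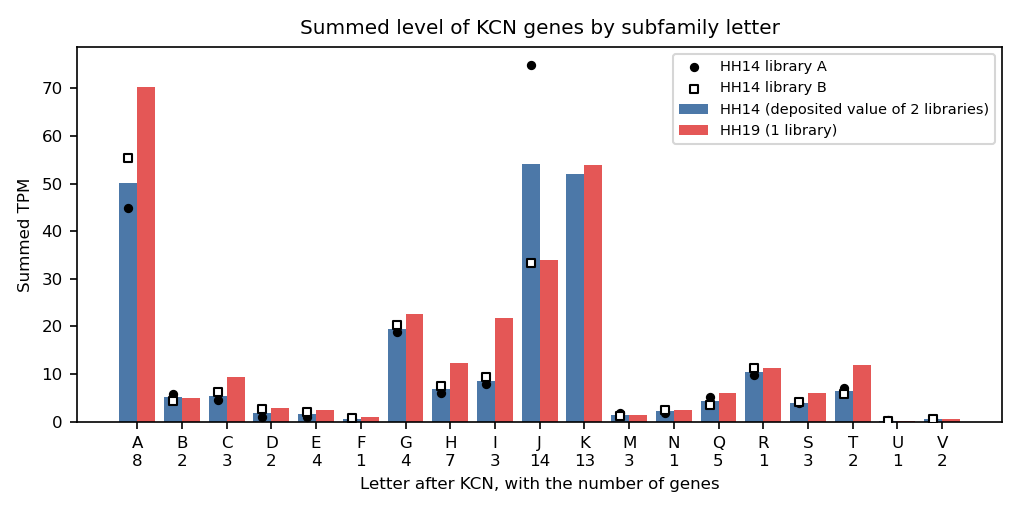
Summed TPM of the KCN genes for each subfamily letter, with the number of genes below the letter; bars are the deposited HH14 value and the single HH19 library, the dot and the square are the sums in HH14 libraries A and B, and letter K has none because KCNK5 was not recovered. The letter I sum was 8.60 TPM at HH14 against 21.7 TPM at HH19, and the letter J sum of 54.2 TPM at HH14 stood for 75.0 and 33.4 TPM in libraries A and B.

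By subfamily letter, the summed level was higher at HH19 for 15 letters and lower for 4, without a test. The split was 13 to 6 after median-ratio scaling and 11 to 8 after quantile normalization, and letters K and M turned under either. Several letters were nearly level, with ratios of HH19 to HH14 of 0.99 for B, 1.01 for M and 1.04 for K. Letters E, F, U and V held no gene that passed the filter. The plot of summed levels shows that, by the deposited HH14 value, 3 letters of similar size held most of the KCN level. Letter J, the inward rectifiers, summed to 54.2 TPM, letter K, the leak channels, to 52.1 TPM, and letter A, with its soluble subunits, to 50.2 TPM. At HH19 the order was letter A with 70.3 TPM, letter K with 54.0 TPM and letter J with 34.0 TPM. Letter A was also above letter J in HH14 library B (55.5 against 33.4 TPM). In HH14 library A it was below letter J (44.9 against 75.0 TPM). Among letters of at least 5 TPM at either stage, the highest ratios of HH19 to HH14 were 2.52 for letter I, 1.88 for letter T, 1.82 for letter H and 1.74 for letter C. For each of these letters the HH19 sum lay above the sums of both HH14 libraries. The letter J ratio was 0.63, and there the HH19 sum lay between the libraries. That position depends on the split of KCNJ5, which only just met the limit for recovery.

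By role, the voltage-gated pores made 16.0% of the summed KCN level at HH14 and 21.2% at HH19. The accessory subunits made 19.8% and 26.2%, and the calcium- or sodium-activated channels 4.13% and 5.62%. Over the 78 recovered genes the pores made 15.5% in library A, 19.4% in library B and 22.5% at HH19. In the same order the accessory subunits made 17.9%, 25.7% and 27.8%, and the activated channels 4.49%, 4.50% and 5.96%. Inward rectifiers made 23.0% at HH14 and 12.3% at HH19. Over the 78 recovered genes their share was 32.5% in HH14 library A, 16.5% in library B and 13.1% at HH19. Leak channels made 22.1% and 19.6%, and silent modifiers 10.5% and 10.9%. Over the recovered genes, which lack KCNK5, leak channels made 15.1%, 15.7% and 14.8% in library A, library B and HH19. Silent modifiers made 10.3%, 12.7% and 11.6%.

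**Figure D2:**
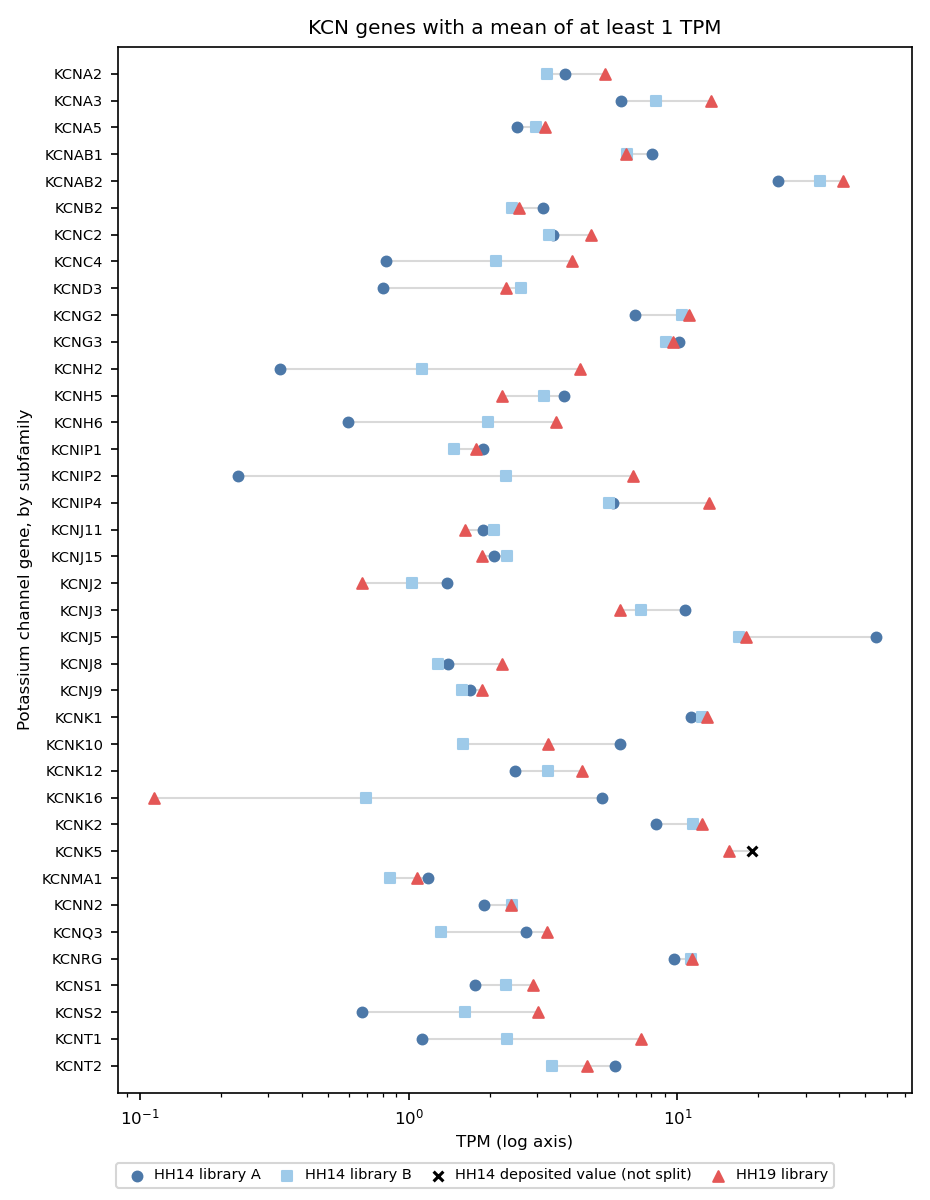
TPM on a log axis of 38 of the 39 KCN genes with a mean of at least 1 TPM, in HH14 library A (dot), HH14 library B (square) and the HH19 library (triangle); the cross is the deposited HH14 value of KCNK5, which could not be split. The HH14 libraries lie far apart for KCNIP2 (0.233 and 2.30 TPM) and KCNK16 (5.24 and 0.697 TPM), and close together for KCNIP4 (5.75 and 5.54 TPM).

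The voltage-gated pore genes open when the membrane is depolarized. They numbered 25, of which 12 passed the filter and 2 were higher at HH19, KCNC4 and KCNH2. Over all genes that passed the filter 3.93% were higher and 1.38% lower. Few genes of each role passed the filter, so the counts here and below describe single genes and not the role. The most abundant pore gene was KCNA3, a delayed rectifier of the Shaker group. It had 6.15 TPM in library A, 8.32 TPM in library B and 13.3 TPM at HH19. HH19 lay above both HH14 libraries, and the log2 difference from the deposited value was 0.79. KCNA2, the axonal Shaker channel, had 3.83, 3.27 and 5.37 TPM in library A, library B and HH19. KCNA5 was nearly level, with 2.53, 2.98 and 3.21 TPM. The other Shaker genes, KCNA1, KCNA4 and KCNA10, were below 0.5 TPM in each library.

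KCNC4 belongs to the Shaw group, whose members open at strong depolarization and close fast. It had 0.827 TPM in library A, 2.11 TPM in library B and 4.07 TPM at HH19, from 47, 156 and 248 reads. HH19 was above both, by 1.47 on the log2 scale from library A and 0.70 from library B, so that the 2-fold call rested on library A. The log2 difference was 1.04, and limma gave 1.09 ± 0.49 (SE) with an adjusted p of 0.580. Its relative KCNC2 had 3.44 and 3.32 TPM at HH14 against 4.75 TPM at HH19, with little distance between the HH14 libraries. KCNC1, the third Shaw gene, stayed low with 0.548 TPM at HH14 against 0.593 TPM at HH19.

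KCNB2, a Shab channel, carries a slow delayed rectifier current. It had 3.16, 2.41 and 2.58 TPM in library A, library B and HH19, so that HH19 lay between the HH14 libraries. KCND genes make the transient A-type current, which delays firing. KCND3 had 0.807, 2.61 and 2.30 TPM and also lay between the HH14 libraries. KCND2 was below the filter, with 5 and 2 reads at HH14 and 22 reads at HH19, or 0.170, 0.0663 and 0.618 TPM.

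KCNH2 encodes the ERG channel, which repolarizes heart muscle and is also found in neurons. It had 0.331 TPM in library A, 1.12 TPM in library B and 4.34 TPM at HH19, from 14, 64 and 206 reads. HH19 stood above both HH14 libraries, by 2.004 and 1.33 on the log2 scale, and the difference from the deposited value was 1.63. In limma the difference was 1.67 ± 0.47 (SE) with an adjusted p of 0.112. The related ERG gene KCNH6 had 0.596, 1.98 and 3.55 TPM, and its log2 difference of 0.99 lay just inside the 2-fold limit. The third ERG gene, KCNH7, was low, with 0.267 TPM at HH14 against 0.667 TPM at HH19.

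KCNH5, an EAG channel, had the highest level of letter H at HH14 and not at HH19. It had 3.79 TPM in library A, 3.18 TPM in library B and 2.22 TPM at HH19. HH19 was below both HH14 libraries, with a log2 difference of -0.48. Letter Q genes carry the M-current, which steadies the resting voltage of neurons. Among them KCNQ3 alone passed the filter, with 2.73, 1.33 and 3.27 TPM, and HH19 lay above 2 well separated HH14 values.

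Silent modifiers, letters F, G, S and V, form no channel on their own and change the gating of Shab pores. They numbered 10, of which 4 passed the filter and none was higher or lower by size. KCNG3 and KCNG2 were the most abundant. KCNG3 had 10.2, 9.09 and 9.62 TPM in library A, library B and HH19, a log2 difference of 0.00 to 2 decimals. KCNG2 had 6.98, 10.4 and 11.0 TPM, with HH19 close to library B. These levels of KCNG2 and KCNG3 lay above that of the Shab pore KCNB2 in every library.

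KCNS2 had 0.668 TPM in library A, 1.62 TPM in library B and 3.03 TPM at HH19, from 8, 27 and 42 reads. HH19 was above both HH14 libraries, and the log2 difference of 0.91 missed the 2-fold limit. KCNS1 had 1.76, 2.31 and 2.89 TPM. KCNS3 went the other way and was below the filter, with 41, 8 and 1 reads, or 1.45, 0.242 and 0.0654 TPM. In reads scaled for depth, without the 1 read that each TPM value adds per library, KCNS3 in library A was 43.2 times HH19. The 95% interval was 7.33 to 1747, for counting error only. The HH14 level of KCNS3 was held mainly by library A.

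Accessory subunits bind to the pores and tune them. They numbered 11, of which 5 passed the filter and 2 were higher at HH19. KCNAB2, a soluble subunit of Shaker channels, was the most abundant KCN gene at HH19, with 23.7 TPM in library A, 33.8 TPM in library B and 41.1 TPM at HH19. The log2 difference was 0.50, with HH19 above both HH14 libraries. Its relative KCNAB1 had 8.01, 6.51 and 6.44 TPM, with HH19 level with library B. KCNAB2 overlaps CHD5 (4.37 TPM at HH14, 10.5 TPM at HH19) and NPHP4 (10.7 and 14.7 TPM) in the RefSeq annotation of the GRCg7b assembly. The sources used here do not say whether counting used strand. The same limit holds for all 14 KCN genes that overlap another protein-coding gene there. KCNIP4 overlaps PACRGL (8.04 TPM at HH14, 7.06 TPM at HH19), KCNK10 overlaps SPATA7 (9.88 and 7.59 TPM) and KCNS1 overlaps STK4 (65.8 and 60.5 TPM). KCNJ5 overlaps KCNJ1 and ARHGAP33.

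The KCNIP genes encode calcium-binding subunits of the A-type channels. KCNIP2 had 0.233 TPM in library A, 2.30 TPM in library B and 6.84 TPM at HH19, from 2, 37 and 92 reads. The HH14 libraries were themselves apart by more than 2-fold, and HH19 was above both, by 2.67 and 1.25 on the log2 scale. In reads scaled for depth, without the added read, HH19 was 43.7 times library A (29.4 times in TPM). The 95% interval of the read ratio was 11.7 to 366, for counting error only. The log2 difference from the deposited value was 1.79, the highest of the KCN genes that passed the filter, and limma gave 1.96 ± 0.53 (SE) with an adjusted p of 0.0995.

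KCNIP4 differed from KCNIP2 in that its HH14 libraries were close. It had 5.75 TPM in library A, 5.54 TPM in library B and 13.1 TPM at HH19, from 516, 637 and 1236 reads. Against library A the log2 difference was 1.06 and against library B 1.10. In limma, whose spread is shared over genes, the difference was 1.08 ± 0.53 (SE) with an adjusted p of 0.632. KCNIP1 did not follow, with 1.89, 1.48 and 1.78 TPM. The pores that these subunits serve, KCND2 and KCND3, summed to 1.83 TPM at HH14 against 2.91 TPM at HH19, while the KCNIP genes summed to 8.60 and 21.7 TPM.

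The remaining accessory genes were low. KCNE genes encode small single-pass subunits, and the highest of them, KCNE2, had 0.673 TPM at HH14 against 1.62 TPM at HH19. KCNMB1, the smooth muscle subunit of the calcium-activated channel, had 21 reads in library A, 4 in library B and 0 at HH19. Set against a floor of 3 reads, library A was at least 7.38-fold above HH19. KCNMB1 overlaps KCNIP1 in the same annotation.

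Calcium- or sodium-activated channels link the potassium current to ions inside the cell. They numbered 5, of which 4 passed the filter and 1 was higher at HH19, KCNT1. KCNT1, the sodium-activated channel of many neurons, had 1.12 TPM in library A, 2.32 TPM in library B and 7.33 TPM at HH19, from 85, 226 and 590 reads. HH19 was above both HH14 libraries, by 1.97 and 1.33 on the log2 scale, and the log2 difference was 1.61. In limma the difference was 1.65 ± 0.51 (SE) with an adjusted p of 0.181.

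Its closest relative KCNT2 had 5.86, 3.42 and 4.61 TPM in library A, library B and HH19, so that HH19 lay between the HH14 libraries. The order of the pair was therefore KCNT2 above KCNT1 in both HH14 libraries and KCNT1 above KCNT2 at HH19. KCNMA1, the large-conductance calcium-activated channel, had 1.18, 0.851 and 1.08 TPM. KCNN2, a small-conductance channel, had 1.91, 2.42 and 2.41 TPM. Both stayed within or at the edge of the range of the HH14 libraries.

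Inward rectifiers pass potassium more easily into the cell than out and hold the membrane near rest. They numbered 14, of which 7 passed the filter and none was higher or lower by size. KCNJ5, a G protein-gated channel of heart and neurons, was the most abundant KCN gene at HH14 by its deposited value of 35.8 TPM. By the recovered reads that value stood for 54.7 and 16.9 TPM in libraries A and B, from 1432 and 567 reads. This split only just passed, with 0.00999 solutions expected by chance against the limit of 0.01. HH19 had 18.0 TPM, close to library B, and the log2 difference was -1.55 from library A and 0.08 from library B. The deposited values alone gave -0.96, and limma gave an adjusted p of 0.923.

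KCNJ3, with which KCNJ5 pairs in the heart, had 10.6 TPM in library A, 7.34 TPM in library B and 6.11 TPM at HH19. HH19 was below both HH14 libraries, with a log2 difference of -0.49. KCNJ2, a strong rectifier, was also below both, with 1.39, 1.03 and 0.673 TPM. Its counting intervals for HH19 (0.451 to 0.968 TPM) and library B (0.770 to 1.34 TPM) overlapped. KCNJ8 and KCNJ11 form the ATP-sensitive channels that sense the energy state of a cell. KCNJ8 had 1.41, 1.28 and 2.22 TPM, above both HH14 libraries, and KCNJ11 had 1.89, 2.07 and 1.63 TPM, below both. The other members that passed the filter differed little, KCNJ9 with 1.69, 1.58 and 1.87 TPM and KCNJ15 with 2.08, 2.33 and 1.87 TPM.

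Leak channels of letter K carry a pair of pore domains in each subunit and let potassium pass at rest. They numbered 13, of which 6 passed the filter and 1 was lower at HH19. KCNK5, an alkali-activated channel, had a deposited HH14 value of 18.9 TPM and 15.5 TPM at HH19, and its HH14 libraries could not be separated. KCNK1 had 11.2, 12.3 and 12.9 TPM in library A, library B and HH19. KCNK2, which responds to stretch and lipids, had 8.34, 11.4 and 12.4 TPM. HH19 was close to library B for KCNK1 and for KCNK2. KCNK12 had 2.48, 3.298 and 4.43 TPM, above both HH14 libraries.

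KCNK10, a relative of KCNK2, had 6.12 TPM in library A, 1.59 TPM in library B and 3.298 TPM at HH19, so that HH19 lay between HH14 libraries more than 2-fold apart. KCNK16, known from pancreatic islet cells, had 5.24 TPM in library A, 0.697 TPM in library B and 0.113 TPM at HH19, from 87, 14 and 1 reads. HH19 was below both, by 2.49 on the log2 scale from library A and 0.61 from library B. The log2 difference of -1.83 therefore rested on library A, and limma gave -1.55 ± 0.54 (SE) with an adjusted p of 0.295. In reads scaled for depth, without the added read, library A was 91.7 times HH19 and library B 11.5 times. The 95% intervals, for counting error only, were 16.0 to 3662 and 1.75 to 487. KCNK16, KCNK17 and KCNK5 are neighbours in the GRCg7b annotation, and KCNK17 had 7 reads or fewer in each library.

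KCNK3, an acid-sensitive leak channel, lay just below the filter, and its values would otherwise have met the size rule. It had 3 reads in library A, 16 in library B and 44 at HH19, or 0.184, 0.609 and 1.96 TPM. HH19 was above both HH14 libraries, and the log2 difference was 1.08. KCNRG, a soluble regulator that hinders the assembly of voltage-gated channels, was even across the libraries, with 9.74, 11.3 and 11.4 TPM. KCNRG overlaps TRIM13, which had 41.2 TPM at HH14 against 38.2 TPM at HH19.

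The 40 genes below the filter were described by plain ratios of TPM, with no test. Of these, 9 were at least 2 times as high at HH19 (KCND2, KCNE2, KCNH4, KCNH7, KCNH8, KCNJ12, KCNK3, KCNK15 and KCNK18), beside 16.9% of all 4819 genes below the filter. The reverse held for 5 (KCNJ16, KCNK4, KCNMB1, KCNS3 and KCNU1), beside 10.2%. Several of these ratios rest on few reads, as for KCNH8 with 0, 0 and 1 reads. On the same plain scale 7 of the 39 genes that passed the filter were at least 2 times as high at HH19, beside 6.15% of all genes, the additional ones being KCNH6 and KCNS2. KCNK16 was the 1 gene at least 2 times as high at HH14, beside 2.63% of all genes.

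**Figure D3:**
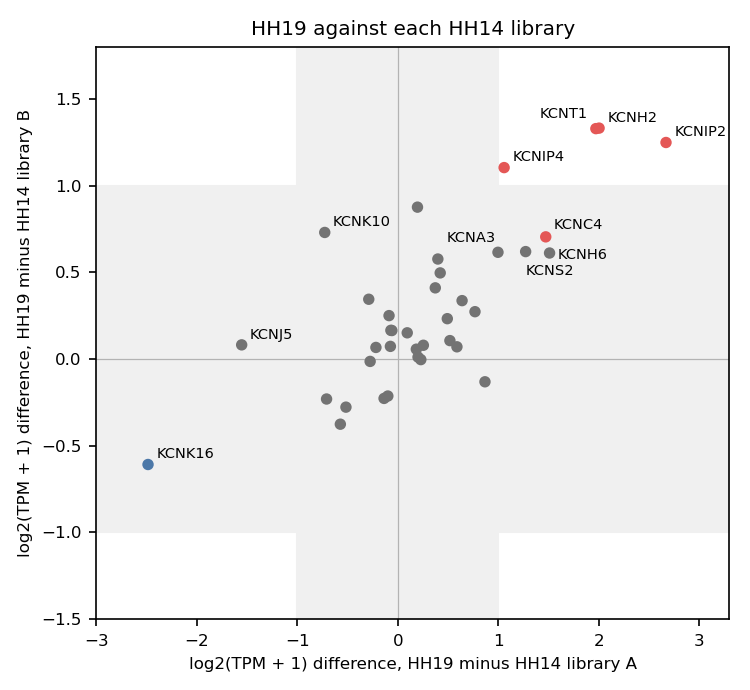
log2(TPM + 1) difference of HH19 from HH14 library A (horizontal) and from library B (vertical) for the 38 recovered KCN genes with a mean of at least 1 TPM; red genes are higher and the blue gene lower by the size rule, and the grey band marks differences under 2-fold from at least 1 library. KCNT1, KCNH2, KCNIP2 and KCNIP4 lie beyond 2-fold on both axes, and KCNK16 and KCNJ5 lie far to the left with -0.61 and 0.08 on the vertical axis.

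The HH14 libraries differed from each other for several of the genes that differed between the stages. In plain TPM, library B was at least 2 times library A for 7 KCN genes that passed the filter (KCNC4, KCND3, KCNH2, KCNH6, KCNIP2, KCNS2 and KCNT1), of 38, beside 6.65% of all genes. Library A was at least 2 times library B for 4 (KCNJ5, KCNK10, KCNK16 and KCNQ3), beside 8.38% of all genes. On the log2(TPM + 1) scale the same comparison gave KCNIP2 above, beside 3.12% of all genes, and KCNJ5, KCNK10 and KCNK16 below, beside 5.09%. The plot of HH19 against each library shows these as the points far from the diagonal.

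**Figure D4:**
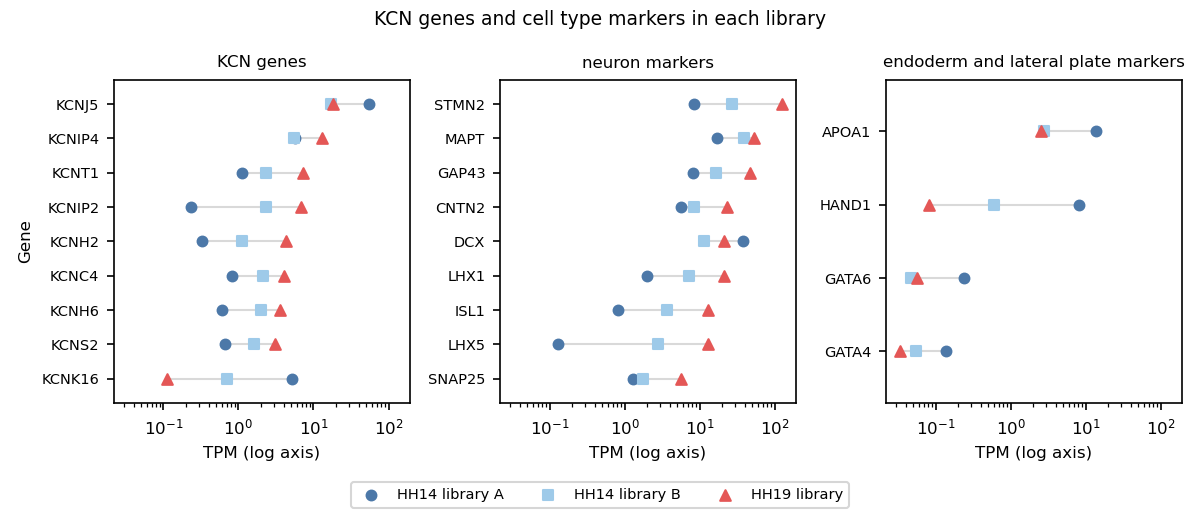
TPM on log axes of 9 KCN genes (left), 9 neuron markers (centre) and 4 endoderm and lateral plate markers (right) in HH14 library A (dot), HH14 library B (square) and the HH19 library (triangle). KCNT1, KCNH2 and KCNIP2 have the order library A, library B, HH19, as does STMN2, and KCNK16 has the reverse order, as does HAND1.

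Markers of other cell types moved between the same libraries. All 6 measured neural progenitor markers lay above the HH14 value at HH19, beside 55.6% of all genes, and none was higher by size. These 6 summed to 3820 TPM at HH14 against 4973 TPM at HH19, and none could be split by library. Of 13 measured neuron markers 11 were higher at HH19 by size, beside 3.93% of all genes. All 13 summed to 487 TPM at HH14 against 1350 TPM at HH19. The 9 recovered neuron markers held the smaller part of this level. They summed to 81.3 TPM in library A, 118 TPM in library B and 325 TPM at HH19. The order from library A through library B to HH19 was also that of KCNT1, KCNH2, KCNIP2, KCNC4, KCNH6 and KCNS2. It was common: 15 of the 38 recovered KCN genes had it, among them KCNA3, KCNAB2 and KCNRG, beside 31.8% of all recovered genes. KCNIP4, whose HH14 libraries were level, did not have it. The part of neurons in these differences was not tested. DCX went against that order within HH14, with 37.6 TPM in library A, 11.4 TPM in library B and 21.03 TPM at HH19. The 4 measured endoderm and lateral plate markers summed to 22.2 TPM in library A, 3.52 TPM in library B and 2.73 TPM at HH19, and both with a mean of at least 1 TPM were lower. HAND1 among them had 95, 8 and 0 reads, and GATA4 and GATA6 had 3 reads or fewer in each library.

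KCNK16 had that same falling order of libraries, as did KCNAB1, KCNH5, KCNJ2 and KCNJ3, 5 of 38 in all, beside 14.5% of all recovered genes. KCNJ5 was likewise highest in library A. The 5 recovered surface ectoderm markers summed to 103, 65.9 and 51.6 TPM in library A, library B and HH19, and the 4 neural crest and glia markers to 68.9, 50.0 and 8.95 TPM. The 10 paraxial mesoderm and muscle markers summed to 56.6, 52.9 and 25.4 TPM. Most of that was TNNC1, with 52.1, 45.6 and 17.7 TPM, and the other 9 summed to 4.55, 7.24 and 7.74 TPM. The 7 endothelium and blood markers summed to 27.5, 44.6 and 45.6 TPM, and the 2 notochord markers to 7.71, 6.87 and 8.64 TPM. The part of these tissues in the levels of KCNK16 and KCNJ5 was not tested.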

How the data were processed

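Polyadenylated RNA was sequenced from TruSeq v2 libraries, per the labels' protocols, 2 of HH14 and 1 of HH19. The authors deposited TPM per gene, with 1 column for HH14 and 1 for HH19. The submitters' processing notes list TopHat2, SAMtools, FastQC, DESeq2 and the build galGal4, without roles or versions. The columns summed to 957153.8 and 946462.2 TPM and were not rescaled.

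Each KCN symbol stood on a single line of the table. Members and lists were chosen with earlier results of these data known, and any KCN gene could be named. Of the companion list, the genes past the size limit were named with the 3 most abundant, and ABCC8 was named after its values were seen. A few genes are not reported here by name; every count and sum includes them. A limma test on 1 column per library had been planned, but HH14 has 1 column. Genes were therefore described by size, with a pseudocount of 1 and a mean TPM in which HH14 counted for 2 libraries.

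Each deposited value held 1 added read per library. The smallest whole reads in libraries A and B and in HH19 that gave both values of a gene were searched, with gene lengths in steps of 0.5 bases, and kept where under 0.01 solutions were expected by chance. This gave 12279 genes (77.1%), against 60 (0.377%) when the ratio of the columns was shifted by 2e-05. These limits were chosen after the data were seen, as was the use of limma (two-sided, with an intensity trend and Benjamini-Hochberg adjustment) on log2(TPM + 1) of 7461 recovered genes. The steps were also run on data simulated by the same rules of added and whole reads, with libraries A and B drawn from a shared level. Such data cannot show whether those rules hold for the deposited values. Intervals are exact, at 95%, and cover counting error only. Total reads are unknown.

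Neighbours and overlaps came from RefSeq on GRCg7b, matched by symbol for 76 of 79 genes, and no coordinates were used. The alternatives tried were a pseudocount of 0.1 or 5, a mean of at least 5 TPM or none required, quantile normalization, median-ratio scaling and the omission of each HH14 library. Software was R 4.3.3 with limma 3.58.1, and Python 3.11.15 with scipy 1.17.1, numpy 2.4.6, matplotlib 3.10.9 and pandas 2.3.3.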

Additional observations from a re-analysis of the deposited data

How the results depend on the processing

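The count of KCN genes higher at HH19, 5 as reported, was 0 with a pseudocount of 5, 1 at a mean of at least 5 TPM, 3 after quantile normalization and 0 in limma. The count lower, 1 as reported, was 0 with a pseudocount of 5, at a mean of at least 5 TPM, against each HH14 library and in limma, 2 after median-ratio scaling or quantile normalization, and 0 to 2 when 1 HH14 library was left out. The KCN median of 0.12 was 0.18 with a pseudocount of 0.1, 0.082 with 5, 0.086 after median-ratio scaling and -0.043 after quantile normalization, and 0.17 to 0.22 without 1 HH14 library. Over all genes, 436 higher became 149 (pseudocount of 5), 261 (mean of at least 5 TPM), 219 (against each HH14 library) and 28 (limma), and 324 to 806 without 1 HH14 library. The 153 lower became 279 (pseudocount of 0.1), 46, 85, 35 and 6 in the same order, and 61 to 306 without 1 HH14 library. The cause of these shifts was not tested. The counts are not over the same genes. Those against each HH14 library, in limma and without 1 HH14 library cover 38 KCN genes and 7461 genes in all. At a mean of at least 5 TPM they cover 12 and 8867, and in the other settings 39 and 11097. Log2 ratios of letter sums after quantile normalization were 0.0091 (G), 0.65 (H), 1.13 (I), -0.12 (K), -0.19 (M), -0.10 (N), -0.068 (R), 0.34 (S) and 0.69 (T). KCNC4 left the 2-fold limit with a pseudocount of 5 (0.49), after median-ratio scaling (0.998), after quantile normalization (0.87) and without library A (0.70), and KCNIP4 after quantile normalization (0.92). KCNK16 left it without library A (-0.61), and KCNJ5 passed it without library B (-1.55), after median-ratio scaling (-1.01) and after quantile normalization (-1.05). KCNH6 and KCNS2 passed it with a pseudocount of 0.1 (1.40 and 1.33) and without library B (1.51 and 1.27). With a pseudocount of 5 no KCN gene passed it, and KCNT1, KCNH2 and KCNIP2 passed it with a pseudocount of 0.1, no filter, each scaling and either HH14 library left out. No paired analysis was possible because HH19 has 1 library and shares fewer than 2 replicate numbers with HH14. The low read numbers of many members limit what could be seen.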

Other observations

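Potassium is also moved by pumps, cotransporters and channels outside the KCN family. Of a list of 45 such genes and channel partners 38 were measured and 30 passed the filter. By size 2 were higher at HH19 (6.67%, beside 3.93% of all genes) and none lower (beside 1.38%). The median log2 difference was 0.13, beside 0.05 over all genes. FXYD6, a modulator of the sodium-potassium pump, had 1.51 TPM in HH14 library A, 2.26 TPM in library B and 5.82 TPM at HH19. HCN2, a pacemaker channel that passes sodium and potassium, had 0.530, 1.49 and 3.85 TPM. HH19 was above both HH14 libraries for FXYD6 and HCN2. The pump subunit ATP1B3 was far more abundant than any KCN gene, at 227 TPM at HH14 against 232 TPM at HH19. ATP1B1 had 65.9 and 66.5 TPM in the HH14 libraries and 111 TPM at HH19. ABCC8, the regulatory partner of KCNJ11, had 9.57 TPM in library A, 2.82 TPM in library B and 5.09 TPM at HH19, so that HH19 lay between them.

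Calcium, sodium and TRP channel genes, 49 in all, were set beside the KCN genes. Of 22 that passed the filter 2 were higher at HH19 by size (CACNG3 and TRPC6), or 9.09%, beside 3.93% of all genes. None was lower, beside 1.38% of all genes. The median log2 difference was 0.49 beside 0.12 for the KCN genes. Of 20 recovered genes of these other families HH19 was above both HH14 libraries for 16 (80%), beside 47.3% of all recovered genes. The difference between these families was not tested.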
